A study of Mus musculus with 4 samples.

Results

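The contactin-associated proteins are a family of 7 mouse genes, Cntnap1, Cntnap2, Cntnap3, Cntnap4, Cntnap5a, Cntnap5b and Cntnap5c, taken by symbol from the 55487 genes listed. Each symbol was listed once. Levels were compared between sorted nuclei of excitatory neurons (2 libraries) and of inhibitory neurons (2 libraries). Both groups came from the whole brain except the olfactory bulb of mice of genotype WT (wild type), with no treatment in the labels and all in 1 batch. The series gives the mice as adult, with no more exact age, and the sources used here do not name the markers of the sort. Nothing in the labels ties the replicates to separate animals, so the spread behind each p-value may be technical. Values were TPM, in which the authors divided out transcript length and library size, and errors of means are SD over n = 2 libraries.

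Contactin-associated proteins cross the membrane of nerve cells with a large extracellular part built from neurexin-like domains and a short cytoplasmic tail. The founding members pair with contactins, adhesion molecules anchored to the outer face of the membrane, and arrange the axon beside the nodes of Ranvier. The protein of Cntnap1 (Caspr) builds the paranodal junction with contactin 1, and that of Cntnap2 (Caspr2) holds Kv1 potassium channels next to it with contactin 2. The protein of Cntnap4 (Caspr4) is found at synapses, including those of GABAergic interneurons, while the roles of Cntnap3 and of the Cntnap5 genes are less well described.

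All 7 genes stood higher in both inhibitory libraries than in both excitatory libraries, and 5 of them (Cntnap2, Cntnap3, Cntnap4, Cntnap5b and Cntnap5c) were called lower in excitatory nuclei. Cntnap1 and Cntnap5a had the same direction without passing the test, and 0 members were called higher in excitatory nuclei. A gene was tested when 2 or more of the 4 libraries gave it 1 TPM or more, which all 7 members met, and was called at a Benjamini-Hochberg adjusted p under 0.05 in limma, a linear model fitted to log2(TPM + 1) over all genes tested. Of the 26055 genes tested, 6.62% were called higher in inhibitory nuclei, 5.43% were called higher in excitatory nuclei, and 33.3% had both inhibitory libraries above both excitatory ones. The median log2 fold change, excitatory over inhibitory, was -0.99 over the 7 members and -0.07 over all genes tested. This scale understates the change of genes with low values. With any 1 library left out and the same genes fitted, the model was left with 1 residual degree of freedom and limma called 0 of the 26055 genes. The members then had adjusted p-values of 0.0638 or more (0.0638 to 0.437 without excitatory replicate 1, 0.0673 to 0.234 without excitatory replicate 2, 0.0792 to 0.323 without inhibitory replicate 1, and 0.0752 to 0.475 without inhibitory replicate 2), 5 or 6 of 7 members had an unadjusted p under 0.05, and all 7 stayed negative. With the filter on low values applied again to the 3 libraries left, 5 members were called, or 6 without inhibitory replicate 1. In sorted nuclei, fewer cells of a type and less RNA per cell cannot be told apart.

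**Figure D1:**
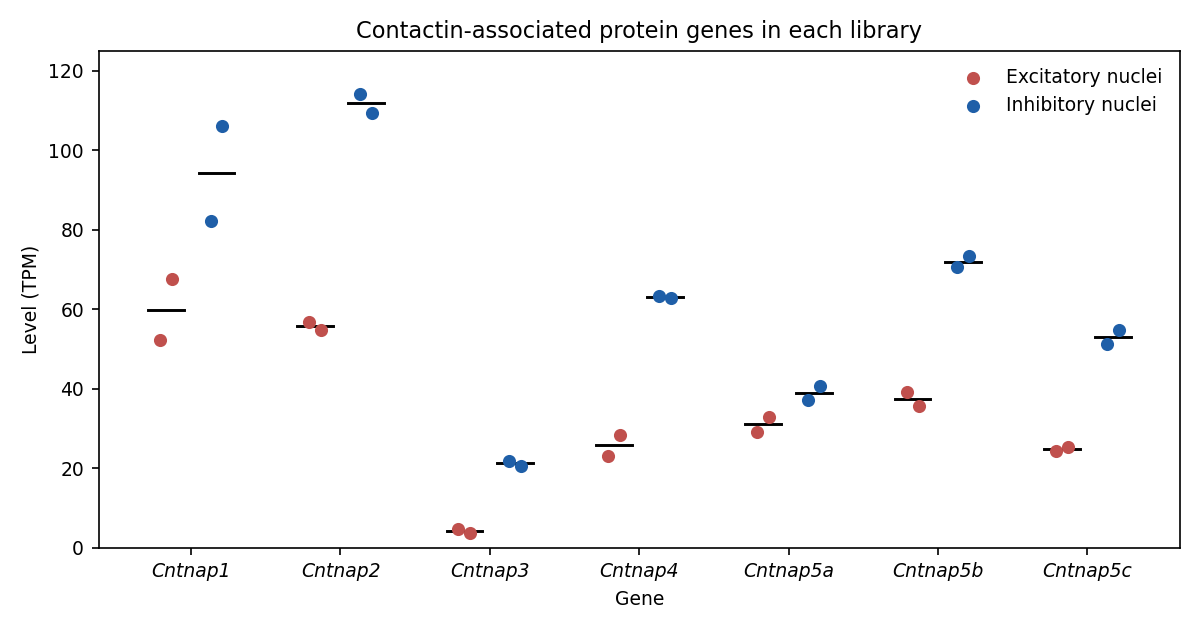
Level of each contactin-associated protein gene in TPM (vertical axis, linear) in every library, with excitatory nuclei in red to the left and inhibitory nuclei in blue to the right of each gene's position on the horizontal axis, and a bar at each mean (n = 2). The excitatory points lie below the inhibitory points for all 7 genes, and Cntnap3 is the lowest gene in both groups.

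Cntnap1 (ENSMUSG00000017167), the paranodal member, lies on chr11:101170523-101190724 on the plus strand (mm10, GENCODE M21) and is the shortest locus of the family, with 20.2 kb. It had 52.2 and 67.7 TPM in excitatory nuclei, against 82.3 and 106 TPM in inhibitory nuclei. The groups did not overlap, yet the 2 libraries of each group lay far apart, with means of 59.9 ± 11.0 and 94.1 ± 16.8 TPM. The log2 fold change of -0.64 ± 0.18 (SE) did not pass the test (limma, adjusted p = 0.0718). It passed among protein-coding genes alone (adjusted p = 0.0261), with the replicate number as a block (0.00714) and without inhibitory replicate 1 with the filter applied again (0.0442). Its exons share 233 bases with those of Plekhh3, a gene on the opposite strand that averaged 11.7 TPM in excitatory and 18.7 TPM in inhibitory nuclei. The kit marks strand, per the labels' protocols, but the sources used here do not say whether counting used it, so reads of the pair may not be separated.

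Cntnap2 (ENSMUSG00000039419), the juxtaparanodal member and a gene linked in humans to epilepsy and autism, covers 2244.86 kb at chr6:45059357-47304213 on the plus strand, of which exons make up 0.457%. It had 56.9 and 54.7 TPM in excitatory nuclei, against 114 and 109 TPM in inhibitory nuclei. Replicates lay close together and the groups were far apart. Means were 55.8 ± 1.57 TPM in excitatory and 112 ± 3.35 TPM in inhibitory nuclei, so the excitatory level was 49.9% of the inhibitory one (log2 fold change -0.99 ± 0.10, limma, adjusted p = 0.00435).

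Cntnap4 (ENSMUSG00000031772), the synaptic member, lies at chr8:112570043-112882717 on the plus strand. It had 23.2 and 28.3 TPM in excitatory nuclei, against 63.2 and 62.9 TPM in inhibitory nuclei. The inhibitory libraries were nearly equal, and both stood well above the excitatory ones. The excitatory mean of 25.8 ± 3.60 TPM was 40.8% of the inhibitory mean of 63.1 ± 0.229 TPM (log2 fold change -1.27 ± 0.14, limma, adjusted p = 0.00511). Exons of Cntnap4 share 503 bases with Gm45904, a locus on the opposite strand listed at 5.18 TPM in excitatory and 8.53 TPM in inhibitory nuclei, and 7.29% of all 50-base windows in Cntnap4 exons also occur in that locus.

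Cntnap3 (ENSMUSG00000033063), on chr13:64736182-64903955 on the minus strand, was the lowest member in every library and had the most negative log2 fold change of the 7. It had 4.73 and 3.61 TPM in excitatory nuclei, against 21.9 and 20.7 TPM in inhibitory nuclei. The excitatory mean of 4.17 ± 0.798 TPM was 19.6% of the inhibitory mean of 21.3 ± 0.889 TPM. The log2 fold change was -2.12 ± 0.22 (limma, adjusted p = 0.00459), and 0.871% of the genes tested had a lower one. None of the 50-base windows in its exons occurs in another annotated gene.

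The Cntnap5 genes are 3 mouse paralogs that correspond to the human gene CNTNAP5, and they did not stand alike. Cntnap5a (ENSMUSG00000070695, chr1:115684756-116587323, plus strand) had 29.2 and 32.9 TPM in excitatory nuclei, against 37.3 and 40.6 TPM in inhibitory nuclei. Groups of this gene lay close without overlapping, and the log2 fold change of -0.32 ± 0.13 did not pass the test (limma, adjusted p = 0.184), nor did it in any other setting tried. Cntnap5b (ENSMUSG00000067028, chr1:99772765-100485942, plus strand) had 39.1 and 35.5 TPM in excitatory nuclei, against 70.6 and 73.3 TPM in inhibitory nuclei. Cntnap5b was lower in excitatory nuclei by a log2 fold change of -0.93 ± 0.11 (limma, adjusted p = 0.00675), at 51.9% of the inhibitory level. Cntnap5c (ENSMUSG00000038048, chr17:57769570-58410355, plus strand) had 24.3 and 25.5 TPM in excitatory nuclei, against 51.2 and 54.7 TPM in inhibitory nuclei. Its excitatory level was 47.0% of the inhibitory level (log2 fold change -1.06 ± 0.12, limma, adjusted p = 0.00564).

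Set against its paralogs within each library, Cntnap5a made up a smaller ratio in inhibitory nuclei. The ratio of Cntnap5a to Cntnap5c was 1.20 and 1.29 in excitatory libraries, against 0.728 and 0.743 in inhibitory libraries, so the order of the pair was opposite in the groups. The ratio of Cntnap5a to Cntnap5b was 0.747 and 0.927 in excitatory libraries, against 0.528 and 0.554 in inhibitory libraries. The ratio of Cntnap5c to Cntnap5b was 0.622 and 0.717 in excitatory libraries, against 0.726 and 0.746 in inhibitory libraries. With 2 libraries a group, the smallest p that an exact two-sided permutation test could give is 0.333, so these ratios carry no test.

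Every member has 24 exons in the coding transcript used here, and the encoded proteins hold between 1287 (Cntnap3) and 1385 (Cntnap1) residues. Aligned end to end, the coding sequences of Cntnap5a and Cntnap5c were 90.3% identical, those of Cntnap5b and Cntnap5c 90.0%, and those of Cntnap5a and Cntnap5b 89.8%. Cntnap3 and Cntnap4 followed with 70.4%, and the other pairs lay between 58.2% and 63.3%. The longest stretches that 2 Cntnap5 genes share letter for letter have 91, 86 and 68 bases. They are printed here from the spliced transcripts (GENCODE M21), since reads inside them cannot be assigned to a gene from their bases alone.
Cntnap5a and Cntnap5b: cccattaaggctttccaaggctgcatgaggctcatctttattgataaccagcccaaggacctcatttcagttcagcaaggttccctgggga
Cntnap5a and Cntnap5c: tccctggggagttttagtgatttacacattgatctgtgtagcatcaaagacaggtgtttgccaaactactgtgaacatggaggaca
Cntnap5b and Cntnap5c: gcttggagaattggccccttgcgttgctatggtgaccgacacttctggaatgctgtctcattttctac
Such stretches were few. Of the 50-base windows in exons, 0.964% in Cntnap5a, 1.77% in Cntnap5b and 2.32% in Cntnap5c also occur in another gene. Outside these paralogs, the share was 3.44% in Cntnap1 and 0.722% in Cntnap2, with 0 of their windows in another member. The shared windows occur in 432 other genes for Cntnap1 and in 588 for Cntnap2. The sources used here do not say how counting placed reads from such windows. A share of windows is not a share of reads, so how much of the TPM of each of these genes is uncertain is unknown.

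**Figure D2:**
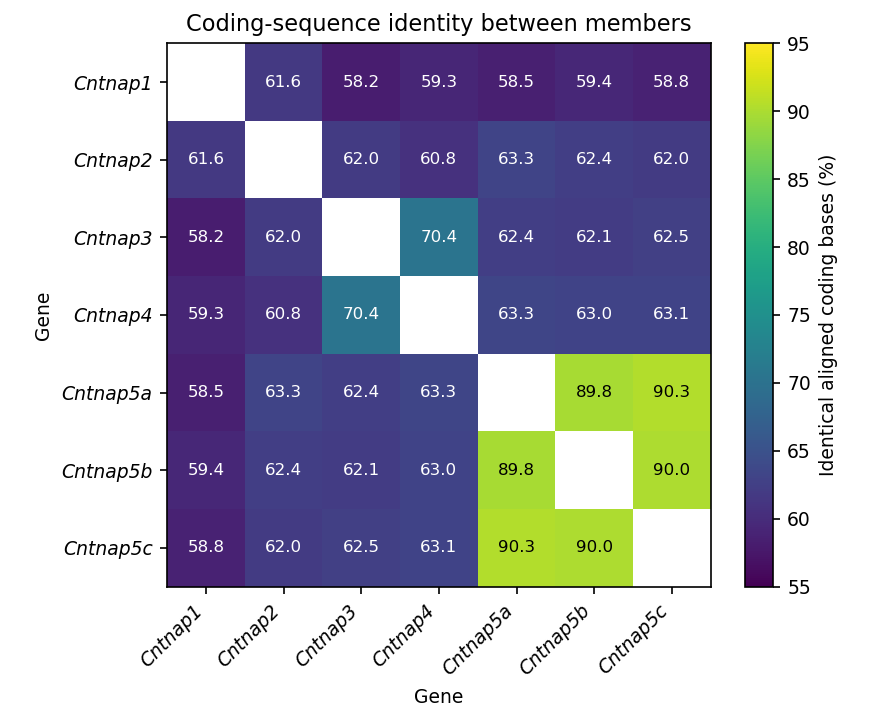
Percent of aligned coding bases that are identical for each pair of the 7 genes (both axes list the genes, and the colour scale and the printed values are in percent). The Cntnap5 genes form a block at 89.8% to 90.3%, Cntnap3 and Cntnap4 stand at 70.4%, and all other pairs at or under 63.3%.

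The end of the coding sequence holds the short cytoplasmic tail. In Caspr2 and Caspr4 the last residues of that tail are known to bind PDZ domain proteins, so the last 60 coding bases before the stop codon are shown for 6 members, with the last 12 bases, the final 4 codons, in capitals.
Cntnap2: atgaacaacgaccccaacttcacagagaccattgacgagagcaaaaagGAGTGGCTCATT
Cntnap3: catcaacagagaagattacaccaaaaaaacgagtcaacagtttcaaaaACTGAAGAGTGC
Cntnap4: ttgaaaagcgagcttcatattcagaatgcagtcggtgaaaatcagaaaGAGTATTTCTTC
Cntnap5a: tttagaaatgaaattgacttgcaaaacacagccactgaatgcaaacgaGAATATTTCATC
Cntnap5b: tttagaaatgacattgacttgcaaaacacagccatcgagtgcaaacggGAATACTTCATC
Cntnap5c: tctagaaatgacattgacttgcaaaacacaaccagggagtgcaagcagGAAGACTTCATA
Set under each other without gaps, the Cntnap5 genes shared 48 to 54 of the 60 bases and 9 to 11 of the last 12. Cntnap4 shared 7 to 10 of the last 12 with them, and Cntnap2 shared 6 or 7 with them and 7 with Cntnap4. Cntnap3 shared at most 3 of the last 12 with any of the other members shown.

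Summed over the family, the members reached 230 and 248 TPM in excitatory libraries, against 441 and 468 TPM in inhibitory libraries. The excitatory mean was 239 ± 13.2 TPM and the inhibitory mean 454 ± 19.2 TPM, so the excitatory sum was 52.6% of the inhibitory one. By share of this sum, Cntnap5a made up 12.7% and 13.3% in excitatory libraries, against 8.46% and 8.69% in inhibitory libraries, without overlap. Cntnap3 made up 2.06% and 1.45% in excitatory libraries, against 4.98% and 4.42% in inhibitory libraries. Cntnap4 made up 10.1% and 11.4% in excitatory libraries, against 14.3% and 13.4% in inhibitory libraries. Cntnap5c made up 10.6% and 10.3% in excitatory libraries, against 11.6% and 11.7% in inhibitory libraries. The shares of Cntnap1 came close without overlapping, with 22.72% and 27.3% in excitatory libraries, against 18.7% and 22.67% in inhibitory libraries. Cntnap2 (24.8% and 22.0% in excitatory, 25.9% and 23.4% in inhibitory libraries) and Cntnap5b (17.0% and 14.3% in excitatory, 16.0% and 15.7% in inhibitory libraries) had shares that overlapped between the groups. Shares of a sum depend on each other, and none was tested.

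**Figure D3:**
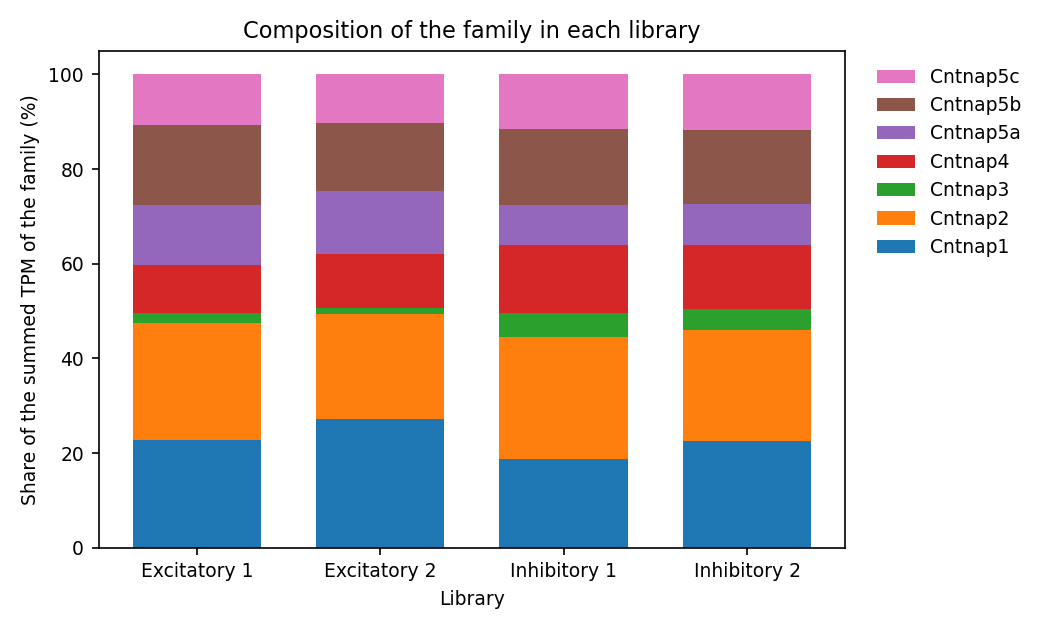
Share of the family's summed TPM that each member made up (vertical axis, percent) in each of the 4 libraries (horizontal axis, excitatory on the left). The Cntnap5a band is wider and the Cntnap3 and Cntnap4 bands are narrower in the excitatory libraries than in the inhibitory ones.

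The order of levels differed between the groups. In excitatory nuclei Cntnap1 came first and overlapped Cntnap2, followed by Cntnap5b, Cntnap5a, Cntnap4, Cntnap5c and Cntnap3, of which Cntnap4 and Cntnap5c overlapped. In inhibitory nuclei the order was Cntnap2, Cntnap1, Cntnap5b, Cntnap4, Cntnap5c, Cntnap5a and Cntnap3, with no overlap between neighbours. Cntnap5a thus stood 4th in excitatory and 6th in inhibitory nuclei.

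Loci inside the introns of Cntnap2 were listed apart from the gene and measured in the same libraries. GENCODE lists 22 unnamed loci of the class TEC inside Cntnap2, on the same strand, between 14.2 and 1727 kb from its start and 559 to 4369 bases long, and 0 of their bases lie in Cntnap2 exons. All 22 stood higher in both inhibitory libraries than in both excitatory ones, 19 were called lower in excitatory nuclei, 0 were called higher, and 3 did not pass (limma). For comparison, 33.3% of all genes tested stood higher in both inhibitory libraries and 6.62% were called lower in excitatory nuclei. At the 22 loci, the groups were also compared by level. Excitatory levels were between 39.3% and 66.4% of inhibitory levels, with a median of 46.0%, beside the 49.9% of Cntnap2 itself. Gm43872, 75.9 kb from the start, had 64.7 and 67.4 TPM in excitatory nuclei, against 157 and 149 TPM in inhibitory nuclei. It and the other examples were chosen after their values were seen. Outside the class TEC, 2 more loci lie in Cntnap2 introns on the same strand. Gm22839, of the class misc_RNA, had 8.76 and 17.8 TPM in excitatory nuclei, against 20.1 and 17.4 TPM in inhibitory nuclei, and its groups overlapped. The pseudogene Gm6352 had 3.76 and 1.19 TPM in excitatory nuclei, against 9.15 and 4.04 TPM in inhibitory nuclei, without overlap. The 22 TEC loci lie in the same gene and are not independent of each other or of Cntnap2 itself. With no filter on low values 13 of them were called.

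Levels of these loci were high near the start of Cntnap2 and low farther in, in both groups. The 10 loci within the first 300 kb had a median of 48.3 TPM in excitatory and 108 TPM in inhibitory nuclei. The 7 loci between 800 and 1100 kb had a median of 8.66 TPM in excitatory and 19.4 TPM in inhibitory nuclei. Across the 22 loci, Spearman's rho of level with distance was -0.87 in excitatory and -0.88 in inhibitory nuclei, a description over loci of the same gene and libraries. Gm43875, 1427 kb from the start, went against this order with 20.4 and 22.0 TPM in excitatory nuclei, against 37.4 and 40.9 TPM in inhibitory nuclei. The excitatory level as a percent of the inhibitory one had a median of 44.9% in the first 300 kb and 47.9% between 800 and 1100 kb.

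**Figure D4:**
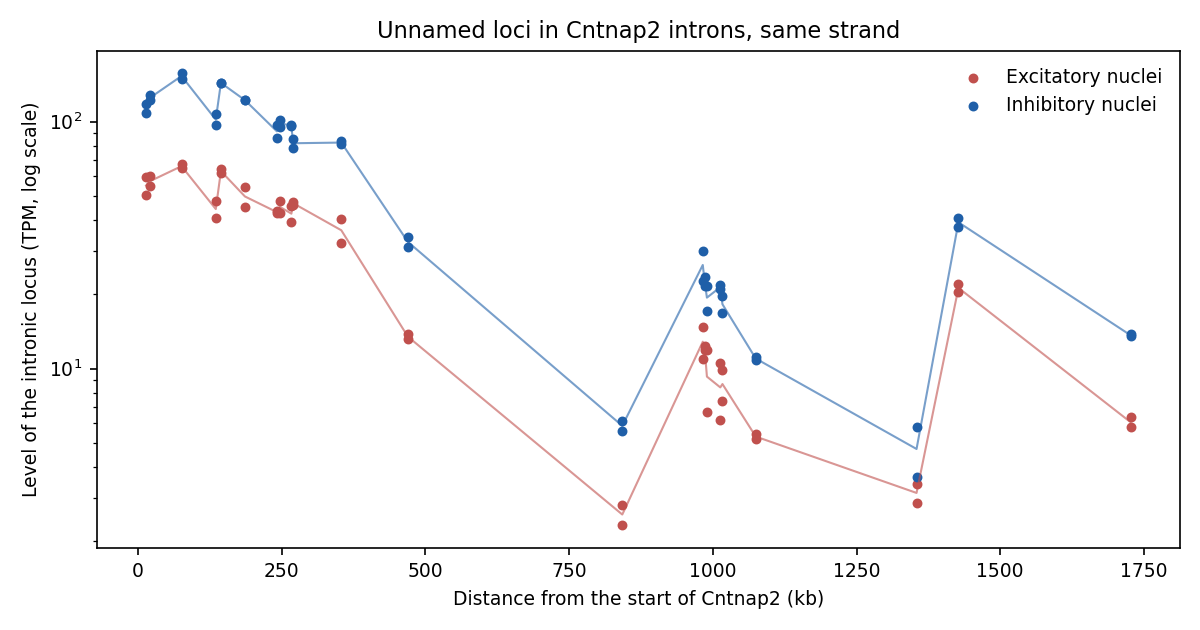
Level of each of the 22 intronic loci (vertical axis, TPM on a log scale) by distance from the start of Cntnap2 (horizontal axis, kb), with points for the 2 excitatory libraries in red and the 2 inhibitory libraries in blue and lines through the group means. The inhibitory points lie above the excitatory points at every locus, and both groups fall from the first 300 kb to about 843 kb and stand higher again near 1427 kb.

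On the opposite strand, 10 loci lie inside members without sharing exon bases, and 8 of them stood higher in both inhibitory libraries. Of the 9 that could be tested, 3 were called lower in excitatory nuclei (limma). Among these, Gm25161 in Cntnap2, named after its values were seen, had 0 TPM in both excitatory libraries, against 2.41 and 2.92 TPM in inhibitory libraries. It met the filter on low values only through the inhibitory libraries, so it could be called in that direction only. Over all genes tested, 33.3% stood higher in both inhibitory libraries and 6.62% were called lower in excitatory nuclei. Gm18484 in Cntnap2 had 15.9 TPM in excitatory and 35.1 TPM in inhibitory nuclei (limma, adjusted p = 0.00800), again chosen after its values were seen. Gm23393 in Cntnap5a, not tested, went the other way (1.83 and 0.339 TPM in excitatory, 0.296 and 0 TPM in inhibitory libraries), and the groups of Gm23602 in Cntnap5b overlapped. Since it is not known whether counting used strand, reads of the members may not be separated from those of these loci.

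Most members are long genes. Cntnap2, Cntnap5a, Cntnap5b and Cntnap5c each span over 600 kb. Among the 147 protein-coding genes tested that span over 600 kb, 16.3% were called for excitatory and 21.1% for inhibitory nuclei, with a median log2 fold change of -0.04. For the 3656 genes under 10 kb, 4.43% were called for excitatory and 4.02% for inhibitory nuclei; the difference between these shares was not tested.

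Of the 6 contactins tested, the partners that give the family its name, 1 was called lower in excitatory nuclei and 5 did not pass, with a median log2 fold change of -0.17. The difference from the 5 of 7 members was not tested, and 6.62% of all genes tested were called lower in excitatory nuclei. Cntn6, an adhesion molecule of the cerebellum and sensory-motor pathways, had 40.7 ± 1.81 TPM in excitatory and 74.9 ± 7.11 TPM in inhibitory nuclei (log2 fold change -0.86, limma, adjusted p = 0.00983). Cntn1, the partner of Cntnap1, averaged 132.0 TPM in excitatory and 136 TPM in inhibitory nuclei, a log2 fold change of -0.03 ± 0.14 that turned positive (0.04) under median ratio scaling and without inhibitory replicate 1 (0.15). Cntn2, the partner of Cntnap2, averaged 58.3 TPM in excitatory and 72.0 TPM in inhibitory nuclei (log2 fold change -0.30, limma, adjusted p = 0.122). Log2 fold changes of Cntn3 (0.53, adjusted p = 0.0564), Cntn4 (0.14, 0.460) and Cntn5 (-0.43, 0.0817) did not pass in limma either. Cntn3 passed in 5 of 10 other settings that kept all libraries, among them both other scalings, and Cntn5 passed among protein-coding genes alone (limma, adjusted p = 0.0337).

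**Figure D5:**
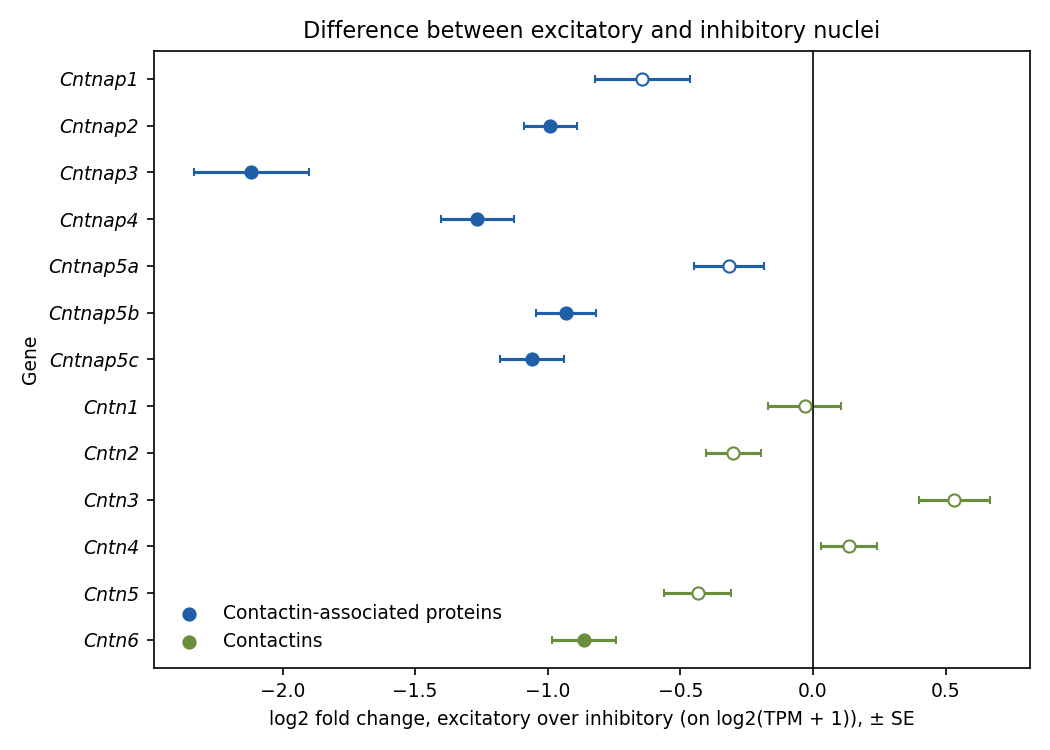
Log2 fold change, excitatory over inhibitory on log2(TPM + 1) (horizontal axis), with its standard error for the 7 contactin-associated protein genes and the 6 contactins (vertical axis). Filled points passed the test (limma, adjusted p under 0.05) and open points did not; all 7 members lie left of 0, from -2.12 to -0.32.

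Genes of the axonal domains in which Caspr and Caspr2 work did not move as a block. Of 27 tested, 4 were called higher and 5 lower in excitatory nuclei and 18 did not pass. The shares called over all genes tested were 5.43% higher and 6.62% lower. The 27 genes had a median log2 fold change of 0.06. Higher in excitatory nuclei were Nrcam, an adhesion molecule of nodes (492 ± 9.56 TPM against 277 ± 1.46 TPM in inhibitory nuclei, log2 fold change 0.83, limma, adjusted p = 0.00556), and Dlg1, a scaffold (1.01, 0.00473). The potassium channel subunit Kcnab2 (0.61, 0.0381) and the sodium channel Scn8a (0.62, 0.0415) were called in the same direction, but lost the call with no filter and with no variance trend, Scn8a also with a pseudocount of 0.1 and with crossed pairing. Lower in excitatory nuclei were Kcnab1, another channel subunit (70.0 ± 0.467 TPM against 140 ± 0.759 TPM in inhibitory nuclei, log2 fold change -0.99, limma, adjusted p = 0.00374), Adam23, a receptor of LGI proteins (-0.87, 0.00541), the secreted protein Lgi2 (-1.31, 0.0100) and Epb41l3. Epb41l3, the cytoskeletal adaptor protein 4.1B that binds the tails of Caspr and Caspr2, had 147 ± 11.7 TPM in excitatory and 249 ± 27.0 TPM in inhibitory nuclei (-0.75, limma, adjusted p = 0.0150), a call lost with no filter and with no variance trend.

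The Kv1 channels that Caspr2 holds in place were looked at after their values were seen. Kcna2, the fifth of the axonal genes called lower, averaged 63.3 ± 1.71 TPM in excitatory and 86.9 ± 3.58 TPM in inhibitory nuclei (log2 fold change -0.45, limma, adjusted p = 0.0417), a call lost with no filter, no variance trend, median ratio scaling and crossed pairing. Kcna1 averaged 91.1 ± 0.408 TPM in excitatory and 112 ± 2.55 TPM in inhibitory nuclei and did not pass (-0.30, adjusted p = 0.0999). The 2 groups of libraries did not overlap for either channel. Of all genes tested, 33.3% likewise had both inhibitory libraries above both excitatory ones.

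Of 8 PDZ partners, scaffolds that bind tails of this kind, 2 were called higher in excitatory nuclei, 0 were called lower and 6 did not pass, with a median log2 fold change of 0.12. Over all genes tested, 5.43% were called higher in excitatory nuclei. Apba2 (Mint2), a presynaptic adaptor, had 239 ± 13.4 TPM in excitatory and 119 ± 10.8 TPM in inhibitory nuclei (log2 fold change 1.00, limma, adjusted p = 0.00516). Lin7b had 149 ± 0.529 TPM in excitatory and 90.0 ± 16.9 TPM in inhibitory nuclei (0.74, limma, adjusted p = 0.0272), a call lost with no filter and with no variance trend.

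Among 4 transcription factors, 3 of them (Foxp1, Foxp2 and Tcf4) named in earlier work in connection with CNTNAP2 and the fourth, Egr1, the subject of the study, 2 were called higher and 1 lower in excitatory nuclei. The shares of all genes tested were 5.43% called higher and 6.62% called lower. Foxp2, reported in humans as a regulator of CNTNAP2, had 34.6 TPM in excitatory and 91.2 TPM in inhibitory nuclei (log2 fold change -1.37, limma, adjusted p = 0.00237). Tcf4 had 510 TPM in excitatory and 300 TPM in inhibitory nuclei (0.76, adjusted p = 0.00822 in limma), and did not pass with no variance trend. Egr1 had 18.9 TPM in excitatory and 10.8 TPM in inhibitory nuclei (0.75, limma, adjusted p = 0.0427), a call lost with no filter, with no variance trend and with crossed pairing. Foxp1 had 160 TPM in excitatory and 169 TPM in inhibitory nuclei and did not pass; its log2 fold change of -0.08 turned positive without excitatory replicate 1 (0.0255) or without inhibitory replicate 2 (0.0110).

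RefSeq promoter windows (250 bases before to 50 after a start, GRCm38.p6) were matched by symbol for 3 of the 7 members. These starts need not be those of the GENCODE M21 loci given above. The Cntnap5b window ends before its locus begins at chr1:99772765, and a Cntnap2 window (chr6:47244146-47244445) lies inside the gene, far from its start. The window of Cntnap5b, chr1:99772151-99772450 on the plus strand, is shown because of the 4 windows matched it alone held TTCAGCACC, the left part of the site of the repressor REST, which keeps neuronal genes off in other tissues; capitals mark that match and those to the GC box GGGCGG.
Cntnap5b: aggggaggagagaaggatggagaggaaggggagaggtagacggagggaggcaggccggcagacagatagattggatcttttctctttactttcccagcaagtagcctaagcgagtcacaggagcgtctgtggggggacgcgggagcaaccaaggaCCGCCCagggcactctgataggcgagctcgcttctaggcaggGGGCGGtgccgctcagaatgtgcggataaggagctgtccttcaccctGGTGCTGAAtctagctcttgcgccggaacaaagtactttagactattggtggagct
Matches were sought on both strands. TTCAGCACC was found in 0.371% and GGGCGG in 35.7% of the 32851 windows in the table. The EGR motif GCGNGGGCG was found in 5.55% of all windows and in 0 of the 4 member windows (2 of Cntnap2), and the CRE motif TGACGTCA in 1.79% and in 0 of them. TATAAA was found in 13.6% of all windows and in that of Cntnap3. A match of letters is a description of these windows only.

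By its levels over the 4 libraries, each member had near neighbours among the genes tested, measured as the Euclidean distance on log2(TPM + 1). Nearest to Cntnap5b was Calb1, a calcium-binding protein of Purkinje and other neurons (distance 0.167), with 37.5 and 39.5 TPM in excitatory nuclei, against 70.5 and 71.0 TPM in inhibitory nuclei. Rit2 (0.169) and Rgs8 (0.192) followed. Nearest to Cntnap2 were Chn2 (0.206), Inpp5a (0.216) and Ric8b (0.257), and nearest to Cntnap3 were Fam107b (0.262), Pde5a (0.276) and Asic4 (0.343). Cntnap4 stood nearest to the nucleoside transporter gene Slc29a1 (0.245), then Kazn (0.250) and Zfp536 (0.287). Cntnap5c stood nearest to Caprin2 (0.152), the protocadherin gene Pcdh11x (0.152) and Erbin (0.200). The 2 members that did not pass had Rtel1 (0.102), Pnck (0.208) and Begain (0.210) beside Cntnap1, and Abhd14b (0.0714), Pepd (0.0818) and Hikeshi (0.0845) beside Cntnap5a.

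Marker genes showed what else differed between the libraries. All 7 tested genes of GABAergic identity, such as Gad1, which makes GABA, were called lower in excitatory nuclei, where they stood at 9.99% to 19.2% of their inhibitory level. The members stood at 19.6% (Cntnap3), 40.8% (Cntnap4), 47.0% (Cntnap5c), 49.9% (Cntnap2), 51.9% (Cntnap5b), 63.7% (Cntnap1) and 79.8% (Cntnap5a). Of 10 markers of interneuron subclasses, 6 were called lower and 2 higher in excitatory nuclei, and 2 did not pass. The 2 higher were Cck (360 against 105 TPM in inhibitory nuclei) and Lamp5 (67.9 against 30.8 TPM in inhibitory nuclei). Of 8 excitatory identity genes, 7 were called higher in excitatory nuclei, while Slc17a6, the glutamate transporter of thalamus and brainstem, was lower there (21.3 against 83.2 TPM in inhibitory nuclei), which goes against the label. Markers of several regions moved with the same contrast, and not only those of GABAergic neurons. Cerebellar granule cells and most thalamic neurons are glutamatergic, so their markers go against the label as Slc17a6 does. All 8 striatal markers were called lower in excitatory nuclei (summed level 299 to 314 against 1207 to 1247 TPM in inhibitory nuclei). Of 8 Purkinje markers 6 were lower (358 to 364 against 655 to 704 TPM in inhibitory nuclei), as were 6 of 8 for cerebellar granule cells (171 to 176 TPM in excitatory against 288 to 321 TPM in inhibitory nuclei) and 4 of 7 tested for thalamus (108 to 133 TPM in excitatory against 291 to 327 TPM in inhibitory nuclei). The lists share genes with others reported here: Slc17a6 is also among the 4 of thalamus, and Foxp2 among the 6 of Purkinje cells. The 2 interneuron markers that did not pass are also in the lists of Purkinje cells and thalamus. The part of these neuron populations in the levels of the members was not tested.

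Glial transcripts were present in both groups with 0 called markers in limma. The 10 oligodendrocyte markers, genes of the myelinating cells that face Caspr at the paranode, summed to 401 to 487 TPM in excitatory libraries, against 308 to 432 TPM in inhibitory libraries, and 8 astrocyte markers to 117 to 153 TPM in excitatory libraries, against 124 to 155 TPM in inhibitory libraries. Among 7 endothelial and mural markers, 3 could be tested, and the rest lay under 1 TPM in every library. Of these, Cldn5, chosen after its values were seen, had 0.903 and 0.227 TPM in excitatory libraries, against 0 in both inhibitory libraries.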

How the data were processed

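Per the labels' protocols, RNA of sorted nuclei was freed of rRNA, and the kit that made the libraries keeps strand; both ends of fragments were read. The authors deposited TPM values for 55487 genes, with 1 column per library; columns summed to between 999833 and 999891, so depth is unknown and no counting interval was computed. The submitters' processing notes name mm10 and, in no stated role, StringTie 2.2.1, HISAT2 2.2.1, fastp 0.23.4 and Bowtie2 2.3.5. The sources used here give neither the annotation nor whether counting used strand.

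Values were taken as log2(TPM + 1) for the 26055 genes that reached 1 TPM in 2 or more libraries, and compared by limma 3.58.1 in R 4.3.3 (variance trend, 2 residual and 4.04 prior degrees of freedom, two-sided, Benjamini-Hochberg over all genes tested). The procedure was tried on simulated data with the same spread for all genes and no filter on low values. Those settings differ from these data, so the trial does not test the calls reported here. Libraries of a group correlated at r = 0.967 (excitatory) and 0.968 (inhibitory), and libraries of different groups at 0.916 to 0.923, across genes; no column was a copy. Loci came from GENCODE M21 (GRCm38, the build of mm10; 55141 identifiers matched), and coding sequences were aligned globally with Biopython 1.88. Figures were drawn with matplotlib 3.10.9. The alternatives changed the pseudocount, filter, scaling, gene set, variance trend, replicate block and libraries.

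Members and lists were chosen with earlier results of these data known. Genes named were all members, contactins and transcription factors listed, up to 4 called genes of smallest p in each direction from larger lists, and the 3 genes nearest to each member, other than predicted genes and clones; other genes are said to be chosen after their values were seen. Some results, among them 1 coding end, are not reported here.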

Additional observations from a re-analysis of the deposited data

How the results depend on the processing

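The 5 member calls and the 0 calls higher in excitatory nuclei stood in all 10 alternatives that kept all libraries, with Cntnap1 as a sixth call among protein-coding genes alone and with the replicate block. Genes called higher in excitatory and in inhibitory nuclei numbered 1414 and 1725. Without a filter, 666 and 740 were called. With any 1 library left out and the same genes, limma called 0 in each direction and 0 members (smallest adjusted p over all genes 0.0545 to 0.0664), while 5311 to 5812 genes had an unadjusted p under 0.05. With the filter applied again to 3 libraries, an alternative chosen after seeing the data, 813 and 1064 (without excitatory replicate 1), 604 and 1085 (excitatory replicate 2), 893 and 871 (inhibitory replicate 1) and 1039 and 800 (inhibitory replicate 2) genes were called, and 5 or 6 members. The replicate numbers share only a number: deviations of same-numbered libraries correlated at 0.0957, and 1946 and 2382 genes were called with the replicate block. Crossed pairing, added after seeing the data, called 1102 and 1355. Directions reversed for Cntn1 (0.0434 under median ratio scaling, and -0.21 to 0.15 over the fits without 1 library) and Foxp1 (-0.18 to 0.0255, positive without excitatory replicate 1 and, at 0.0110, without inhibitory replicate 2). Neither was called, and the cause was not tested. TPM keeps no depth, so the counting error of low values such as those of Cntnap3 in excitatory nuclei is unknown.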
